A study of Mus musculus with 8 samples.

Results

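Adgrb3, Pcdh17, Malrd1, Susd4 and Pld5 are 5 of the 33696 genes counted in single epithelial cells of the mouse cecum and colon. They were chosen by their levels in cecal crypt cells, which in earlier results of these data were higher in germ-free or antibiotic groups than in controls. Differences that rest on cecal crypt samples are therefore given for these 5 genes as a description, with no test, and tests are given in colon samples alone. All 5 genes were found in the gene table by symbol, and all 5 passed the low-count filter of edgeR in crypt cells of both tissues.

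The study took the epithelium of cecum and colon from germ-free (GF), antibiotic-treated (Abx_14D and Abx_4D) and control (Ctrl) mice, with 4 numbered loaded samples for each tissue and condition. The meaning of 14D and 4D, the antibiotics used, and the strain and age of the mice are not stated in the labels. Cells had been pooled by condition and sorted as EPCAM-positive and CD45-negative, with CD44-positive and CD44-negative cells in equal parts, so the balance of dividing and mature cells was set by the sort. No label says that the 4 numbered samples were separate animals, so each p-value reflects variation among these loaded samples, some or all of which may be technical. Cells with at least 500 transcripts were kept.

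Crypt cells are here the cells that carried S phase markers, G2 and mitosis markers, or Lgr5 with at least 4 of 8 stem cell markers. They numbered 702 in Cecum GF, 936 in Cecum Abx_14D, 785 in Cecum Abx_4D, 616 in Cecum Ctrl, 2192 in Colon GF and 1935 in Colon Abx_14D. Crypt sums held 897649 to 18282493 transcripts per sample. Colon Ctrl kept 50 cells and no crypt cell by this gate, and 442 of the 467 crypt cells of Colon Abx_4D came from 1 sample, so a rise over controls could be examined in the cecum alone. In 4 cecal samples, Abx_14D 3 and 4, Abx_4D 2 and GF 4, the median cell had more than 0.5% mitochondrial transcripts.

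Crypts are the pockets at the base of the gut lining where Lgr5-positive stem cells and their dividing progeny renew the epithelium, while mature absorptive cells and goblet cells lie towards the surface. None of the 5 genes is a usual crypt marker. Adgrb3 (BAI3) is an adhesion G protein-coupled receptor, best known in neurons as a receptor for C1q-like proteins, that acts with the Elmo and Dock engulfment proteins in muscle. Pcdh17 is a delta protocadherin, a homophilic adhesion protein studied mainly in the brain. Malrd1 (Diet1) is a large membrane protein of enterocytes that raises FGF15 output and thereby restrains bile acid synthesis in the liver of mice. Susd4 is a sushi-domain membrane protein that inhibits complement, and Pld5 is a member of the phospholipase D family that lacks the residues needed for catalysis.

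In the reference annotation of build GRCm38.p6, Adgrb3 lies on chromosome 1 from 25067476 to 25834772, Susd4 on chromosome 1 from 182764044 to 182896596 and Pld5 on chromosome 1 from 175962301 to 176281512. Malrd1 lies on chromosome 2 from 15526479 to 16255557 and Pcdh17 on chromosome 14 from 84443563 to 84537565. The counts themselves were made on build GRCm39, so these positions only place the genes. All 5 are protein-coding, and 4 of them span more than 100 kb. Promoters of 4 of the 5 genes, from 250 bases before to 50 after a RefSeq start in GRCm38.p6, are shown because the genes were higher together in cecal crypts of GF, while Susd4 and Pld5 differed from the others in the colon. Capitals mark the GC box GGGCGG or its complement CCGCCC, the only one of 3 motifs searched on both strands that was found.
Adgrb3, chr1:25829658-25829957, minus strand: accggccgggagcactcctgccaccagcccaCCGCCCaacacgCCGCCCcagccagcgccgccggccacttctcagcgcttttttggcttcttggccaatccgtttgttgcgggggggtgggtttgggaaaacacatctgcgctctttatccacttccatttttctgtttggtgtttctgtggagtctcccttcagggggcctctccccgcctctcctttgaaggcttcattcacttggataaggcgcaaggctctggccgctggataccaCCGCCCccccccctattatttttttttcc
Pcdh17, chr14:84443313-84443612, plus strand: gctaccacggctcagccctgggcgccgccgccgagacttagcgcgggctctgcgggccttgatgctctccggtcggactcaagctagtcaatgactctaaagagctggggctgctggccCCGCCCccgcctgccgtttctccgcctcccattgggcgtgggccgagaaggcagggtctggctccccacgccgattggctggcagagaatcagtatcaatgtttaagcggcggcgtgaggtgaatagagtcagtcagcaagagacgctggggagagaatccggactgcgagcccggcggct
Susd4, chr1:182763966-182764265, plus strand: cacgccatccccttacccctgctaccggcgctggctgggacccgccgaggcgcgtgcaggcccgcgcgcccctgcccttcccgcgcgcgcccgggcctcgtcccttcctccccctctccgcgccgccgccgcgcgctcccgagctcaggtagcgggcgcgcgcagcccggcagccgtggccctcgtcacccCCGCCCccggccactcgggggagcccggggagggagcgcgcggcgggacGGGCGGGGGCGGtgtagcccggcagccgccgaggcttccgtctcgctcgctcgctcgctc
Pld5, chr1:176213893-176214192, minus strand: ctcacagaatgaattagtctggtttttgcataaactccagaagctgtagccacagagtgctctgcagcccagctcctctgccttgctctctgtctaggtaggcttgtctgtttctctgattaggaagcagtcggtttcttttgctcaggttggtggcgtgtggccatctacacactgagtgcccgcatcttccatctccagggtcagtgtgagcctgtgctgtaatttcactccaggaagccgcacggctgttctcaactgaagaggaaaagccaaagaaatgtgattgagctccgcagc

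The Adgrb3 window held 3 GC boxes, the Pcdh17 window 1, the Susd4 window 3 (of which 2 stand end to end) and the Pld5 window none. The windows are not alike in position. Those of Adgrb3 and Pld5 lie inside their genes, which on the minus strand begin at 25834772 and 176281512. Those printed for Pcdh17 and Susd4 cover the first base of the gene. RefSeq gives Susd4 another start, whose window, from 182764646 to 182764945 on chromosome 1, held 1 GC box and 63.7% G and C and is not printed. A GC box stood in 35.7% of all 32851 RefSeq promoters of this length. The TCF/LEF core ATCAAAG and the HNF4 element CAAAGTCCA, present in 3.73% and 0.475% of all promoters, were in none of the 5 windows. G and C made up 81.3% of the printed Susd4 window, 65.0% of that of Pcdh17, 59.0% of that of Adgrb3 and 51.0% of that of Pld5, against a median of 52.7% over all promoters. These matches describe the letters alone.

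Adgrb3 had the largest fold difference from controls of the 5 in cecal crypts of GF and Abx_14D. Its level, in counts per 1000000 transcripts (CPM), was 134, 136, 116 and 136 in the GF samples and 57.1, 106, 150.2 and 87.1 in the Abx_14D samples. It was 64.4, 27.9, 51.3 and 50.5 CPM in the Abx_4D samples, against 25.4, 32.4, 30.3 and 19.2 CPM in the Ctrl samples. Every GF and Abx_14D sample lay above every Ctrl sample, as did 3 of the 4 Abx_4D samples. The log2 fold change against Ctrl was 2.29 ± 0.26 (SE) in GF, 1.91 ± 0.25 in Abx_14D and 0.92 ± 0.26 in Abx_4D, a description since these contrasts chose the gene. In noncycling Lgr5-positive cells alone it was 3.10 in GF, 3.09 in Abx_14D and 1.51 in Abx_4D. The Abx_14D value rested on sample 3, since Adgrb3 stood there at 61.4, 80.6, 330.4 and 83.9 CPM in the Abx_14D samples and at 131, 143, 94.9 and 183 CPM in the GF samples. Without Abx_14D 3 the log2 fold change in noncycling cells was 2.24 in Abx_14D and 3.10 in GF, an alternative chosen after seeing the data.

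Malrd1 followed the same order of groups. Its crypt level was 237, 172, 161 and 208 CPM in GF, 103, 160.4, 126 and 130.1 CPM in Abx_14D, 123, 113, 77.7 and 80.4 CPM in Abx_4D, and 35.1, 94.4, 53.0 and 39.3 CPM in Ctrl. GF and Abx_14D lay above all Ctrl samples, while 2 of the 4 Abx_4D samples fell below the highest Ctrl sample. The log2 fold change against Ctrl was 1.80 ± 0.25 in GF, 1.23 ± 0.24 in Abx_14D and 0.81 ± 0.25 in Abx_4D. It was 2.19, 1.61 and 1.19 in the same order without Ctrl 2, the highest Ctrl sample.

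Pcdh17 averaged highest in Abx_14D. Its crypt level was 136, 125, 82.5 and 77.6 CPM in GF, 125, 139, 129.9 and 183 CPM in Abx_14D, 128, 123, 79.5 and 109 CPM in Abx_4D, and 68.6, 39.3, 64.6 and 33.2 CPM in Ctrl. All 12 GF and antibiotic samples lay above the 4 Ctrl samples. The log2 fold change against Ctrl was 1.06 ± 0.23 in GF, 1.51 ± 0.23 in Abx_14D and 1.10 ± 0.24 in Abx_4D.

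Susd4 rested on the fewest transcripts, 2647 over all kept cells. Its crypt level was 17.9, 18.5, 21.7 and 23.9 CPM in GF, 10.6, 11.5, 11.97 and 14.8 CPM in Abx_14D, 13.5, 15.6, 11.0 and 12.9 CPM in Abx_4D, and 8.64, 9.63, 5.80 and 4.67 CPM in Ctrl. None of the 3 groups overlapped Ctrl, but the gap to the antibiotic groups was small and rested on few transcripts. The highest Ctrl sample had 9.63 CPM from 25 transcripts. The lowest Abx_14D sample had 10.6 CPM from 52 and the lowest Abx_4D sample 11.0 CPM from 62. All Ctrl crypt cells together held 71 Susd4 transcripts. The log2 fold change against Ctrl was 1.53 ± 0.23 in GF, 0.79 ± 0.23 in Abx_14D and 0.87 ± 0.24 in Abx_4D.

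Pld5 stood apart, since only GF cleared the controls. Its crypt level was 368, 323, 377 and 560.5 CPM in GF, 127, 222, 186 and 123 CPM in Abx_14D, 170.3, 121, 184 and 190.1 CPM in Abx_4D, and 88.0, 177, 127 and 125 CPM in Ctrl. The lowest GF sample was above the highest of the other 12 cecal samples, while Abx_14D and Abx_4D each had 2 samples within the Ctrl range. The log2 fold change against Ctrl was 1.65 ± 0.22 in GF, 0.34 ± 0.22 in Abx_14D and 0.38 ± 0.22 in Abx_4D. The description of the 5 as raised without microbiota thus holds for Pld5 in GF but not, beyond the spread of the samples, after antibiotics.

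As background to these selected values, edgeR called 5.01% of 11946 genes in GF against Ctrl, 2.65% in Abx_14D and 0.653% in Abx_4D (adjusted p under 0.05), and 5, 3 and 1 of the 5 genes passed the same threshold. Nothing is read from those counts, or from the lack of overlap with Ctrl, because the genes were selected on these contrasts. The share of all genes without overlap was not computed.

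**Figure D1:**
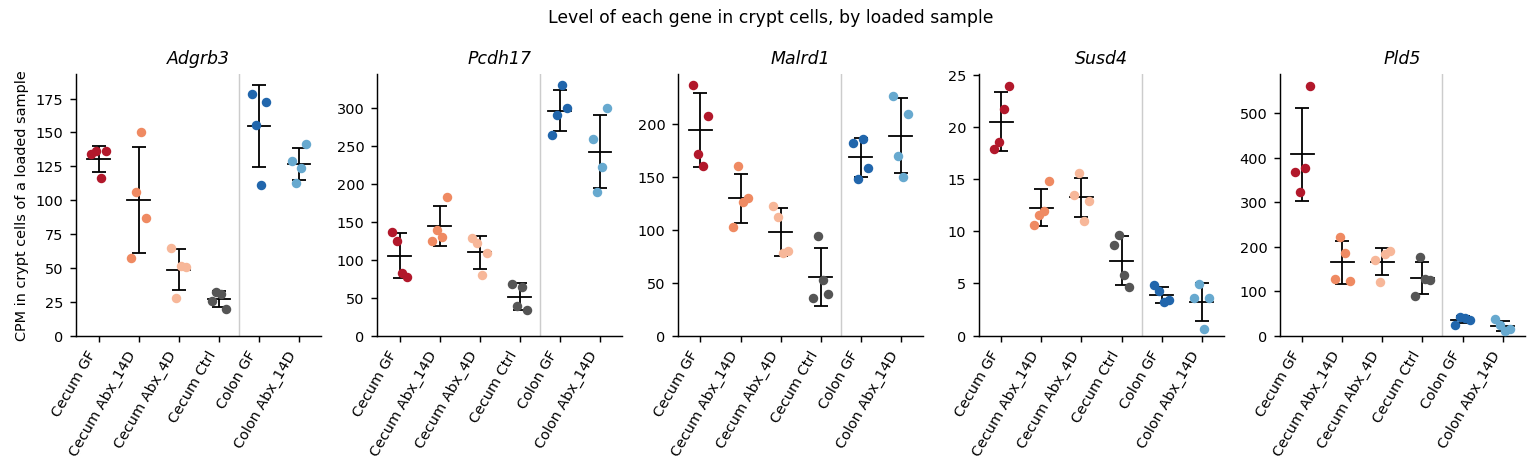
CPM of each gene (y axis, linear, from 0) in the summed crypt cells of each loaded sample, by group (x axis). Points are samples 1 to 4 from left to right, and bars show the mean and SD. Adgrb3 and Malrd1 are lowest in Cecum Ctrl, Susd4 and Pld5 are low in both colon groups, and Pld5 is highest in Cecum GF (323 to 560.5 CPM).

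The levels were also seen as shares of cells. With every cell thinned to 5000 transcripts and 29 to 154 shallower cells per group left out, Adgrb3 was detected in 25.8% ± 2.80 (SD, n = 4) of crypt cells in GF, 23.5% ± 6.86 in Abx_14D, 13.7% ± 1.15 in Abx_4D and 6.98% ± 0.875 in Ctrl. Unthinned, these were 36.7%, 33.3%, 19.8% and 12.3%, at median depths of 19670, 16699.5, 14136 and 14117.5 transcripts. In mature absorptive cells, the class with least Adgrb3, the unthinned share was 5.79%, 5.36%, 7.07% and 4.37% in the same order, at median depths of 14696, 15912, 12952 and 15225.5. The crypt share was thus above this background in every cecal group.

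Malrd1 was detected in 53.8% ± 9.03 of thinned crypt cells in GF, 37.1% ± 5.91 in Abx_14D, 31.0% ± 4.04 in Abx_4D and 17.3% ± 4.98 in Ctrl, and Pld5 in 55.3% ± 10.3, 34.0% ± 7.14, 35.8% ± 7.22 and 24.8% ± 2.73. Pcdh17 was detected in 32.8% ± 5.95, 38.5% ± 6.22, 30.7% ± 4.03 and 19.3% ± 6.58, and Susd4 in 7.04% ± 1.35, 5.67% ± 0.801, 6.54% ± 1.67 and 3.16% ± 0.492, in the same order of groups. A thinned crypt cell held transcripts of 1.75 ± 0.141 of the 5 genes in GF, 1.39 ± 0.160 in Abx_14D, 1.18 ± 0.0817 in Abx_4D and 0.715 ± 0.0939 in Ctrl.

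**Figure D2:**
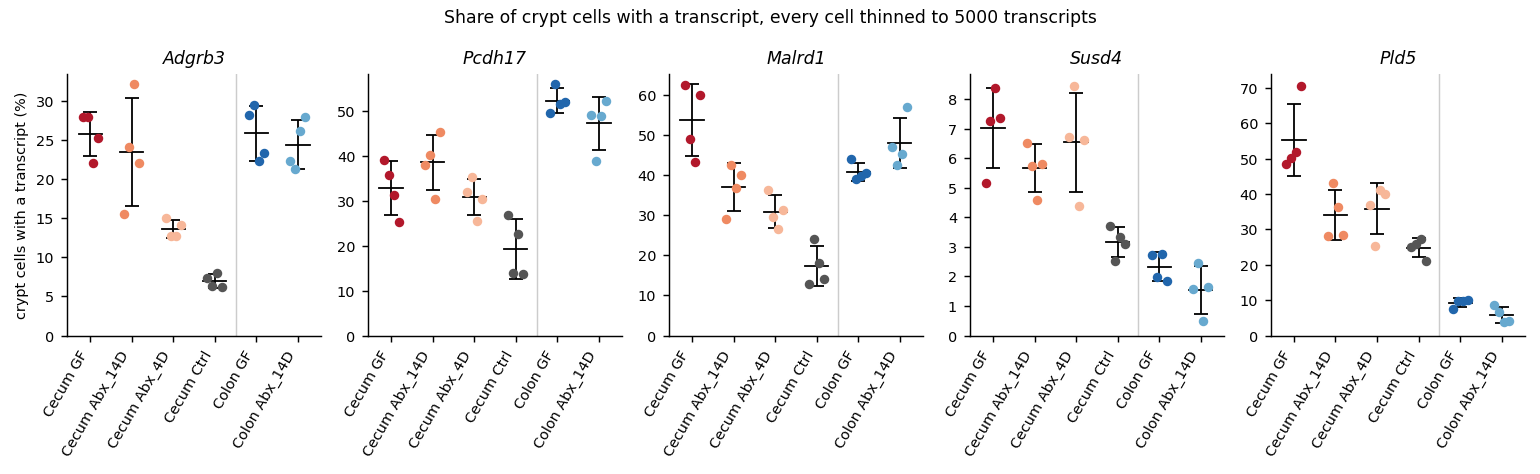
Share of crypt cells with at least 1 transcript of each gene (y axis, percent, from 0) after thinning every cell to 5000 transcripts, by group (x axis). Points are loaded samples, and bars show the mean and SD. For Adgrb3, Cecum GF averages 25.8% and Cecum Ctrl 6.98%.

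Tuft, enteric neuron and glia markers were low in the crypt sums, and mature absorptive markers were present. The 10 tuft cell markers summed to 8.99 to 12.3 CPM in GF, 9.72 to 15.3 in Abx_14D, 7.80 to 16.7 in Abx_4D and 8.48 to 15.6 in Ctrl, with Il25 at 0 in every cecal group but Abx_14D. The enteric neuron and glia markers summed to 4.59 to 6.70 CPM in GF, 5.11 to 6.68 in Abx_14D, 4.10 to 5.17 in Abx_4D and 3.84 to 9.18 in Ctrl, with Uchl1 and Sox10 at 0 in all 4 cecal groups. The 10 mature absorptive markers summed to 1655 to 2098 CPM in GF and 1485 to 2127 CPM in Ctrl. Genes longer than 100 kb, members left out, took 32.3% ± 3.17 of crypt transcripts in GF, 32.6% ± 3.59 in Abx_14D, 30.5% ± 2.76 in Abx_4D and 30.7% ± 2.62 in Ctrl. Noncycling Lgr5-positive cells made up 37.1% to 48.9% of crypt cells in GF, 20.2% to 38.8% in Abx_14D, 27.4% to 39.5% in Abx_4D and 23.3% to 40.5% in Ctrl, and the part of this mix in the levels was not tested beyond the noncycling values given above.

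Contrasts between the cecal groups other than Ctrl rest on the same GF, Abx_14D and Abx_4D samples whose high levels chose the genes, so they too are a description. In cecal crypts of GF against Abx_14D, Pld5 was higher in GF by 1.31 ± 0.22 on the log2 scale, with all 4 GF samples above all 4 Abx_14D samples. The difference was 1.20 without Abx_14D 1, 1.03 without the samples of high mitochondrial share and 0.78 in noncycling Lgr5-positive cells alone. Susd4 differed by 0.74 ± 0.20, Malrd1 by 0.58 ± 0.23, Adgrb3 by 0.38 ± 0.23 and Pcdh17 by -0.45 ± 0.22. Susd4 and Malrd1 also had all 4 GF samples above all 4 Abx_14D samples, Malrd1 only just, at 161 CPM in the lowest GF and 160.4 CPM in the highest Abx_14D sample, while the groups overlapped for Adgrb3 and Pcdh17. The edgeR threshold was passed by 1 of the 5 genes, Pld5, and by 0.276% of all 11946 genes. Neither that count nor the lack of overlap is read as a result, because these samples chose the genes.

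In cecal crypts of Abx_14D against Abx_4D, Adgrb3 differed by 0.99 ± 0.24 and the groups overlapped, with Abx_14D 1 the only Abx_14D sample within the Abx_4D range. Without that sample the difference was 1.19. Malrd1 differed by 0.42 ± 0.24, Pcdh17 by 0.41 ± 0.22, Susd4 by -0.08 ± 0.21 and Pld5 by -0.03 ± 0.22. The edgeR threshold was passed by 0 of the 5 genes and 0.0837% of all genes. At an unadjusted p under 0.05, 1 of the 5 passed, beside 491 of all genes, and DESeq2 called 1, beside 15 genes in all. In both cases this was Adgrb3. These counts too are a description, because the samples chose the genes.

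In the colon all 5 genes were detected in crypt cells of both groups that could be compared. Adgrb3 measured 178, 156, 111 and 173 CPM in Colon GF and 129, 113, 124 and 142 CPM in Colon Abx_14D. Pcdh17 measured 265, 291, 330.1 and 300.2 CPM in Colon GF and 259, 189, 222 and 300.0 CPM in Colon Abx_14D, and Malrd1 182, 148, 186 and 158 CPM in Colon GF and 227, 170.2, 150.0 and 209.8 CPM in Colon Abx_14D. The groups overlapped for all 3 genes. Pld5 measured 24.3, 42.5, 38.9 and 35.0 CPM in Colon GF and 36.3, 23.0, 10.8 and 14.1 CPM in Colon Abx_14D. Susd4, at 4.82, 4.27, 3.17 and 3.41 CPM in Colon GF and 3.56, 4.97, 0.655 and 3.60 CPM in Colon Abx_14D, was scarce in every sample.

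The cecal contrasts that chose the genes hold no colon sample, although earlier results of these data were known when genes and tests were chosen. Colon GF was compared with Colon Abx_14D by edgeR's quasi-likelihood test with Benjamini-Hochberg adjustment over all genes tested. It called 0 of the 5 genes and 1.07% of all 12504 genes. At an unadjusted p under 0.05, 3 of the 5 passed, beside 1445 of all genes. DESeq2 called 0 of the 5, beside 239 genes in all. The log2 fold change was 0.64 ± 0.29 for Pld5 (edgeR adjusted p = 0.414), 0.29 ± 0.13 for Adgrb3 (adjusted p = 0.429) and 0.29 ± 0.13 for Pcdh17 (adjusted p = 0.411). It was 0.25 ± 0.34 for Susd4 and -0.17 ± 0.13 for Malrd1.

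Set against the cecum, colon crypts split the 5 genes. Pld5 and Susd4 were lower in the colon in both conditions and Pcdh17 was higher in both. The cecal samples in these differences are those that chose the genes, so the differences are again a description. In GF, colon against cecum, the log2 difference was -3.53 ± 0.29 for Pld5, -2.33 ± 0.25 for Susd4 and 1.49 ± 0.18 for Pcdh17. For all 3, no colon GF sample overlapped a cecal GF sample, and how many of all genes also show no overlap was not computed. Adgrb3 differed by 0.25 ± 0.20 and Malrd1 by -0.20 ± 0.15. The edgeR threshold was passed by 3 of the 5 genes and by 17.3% of all 12654 genes, a count from which nothing is read for the same reason.

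After Abx_14D, colon against cecum, the log2 difference was -2.85 ± 0.29 for Pld5, -1.83 ± 0.27 for Susd4, 0.75 ± 0.17 for Pcdh17, 0.55 ± 0.15 for Malrd1 and 0.34 ± 0.20 for Adgrb3. The edgeR threshold was passed by 4 of the 5 genes, all but Adgrb3, and by 34.6% of all genes. Nothing is read from that count, because the cecal samples chose the genes. Adgrb3 differed by 0.60 without Cecum Abx_14D 3 and by 0.63 without the samples of high mitochondrial share, a setting in which Malrd1 differed by 0.53. Noncycling Lgr5-positive cells made up 57.7% to 69.5% of colon and 20.2% to 38.8% of cecal crypt cells after Abx_14D. Within those cells Pcdh17 differed by only 0.50 and Malrd1 by only 0.25. Adgrb3 differed by -0.06 within those cells, and by 0.76 without Cecum Abx_14D 3, the sample of 330.4 CPM, an alternative chosen after seeing the data.

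Whether the step between GF and Abx_14D differed between colon and cecum was fitted as an interaction. edgeR called 0.0% of 12654 genes, with 786 at an unadjusted p under 0.05, while DESeq2 called 20. The fit holds the cecal samples that chose the 5 genes, so its values for them are a description. Of the 5 genes, 0 passed edgeR and 0 DESeq2, and 2 had an unadjusted p under 0.05, counts from which nothing is read. The interaction was -0.75 ± 0.21 for Malrd1, 0.73 ± 0.24 for Pcdh17, -0.68 ± 0.385 for Pld5, -0.50 ± 0.37 for Susd4 and -0.09 ± 0.28 for Adgrb3.

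**Figure D3:**
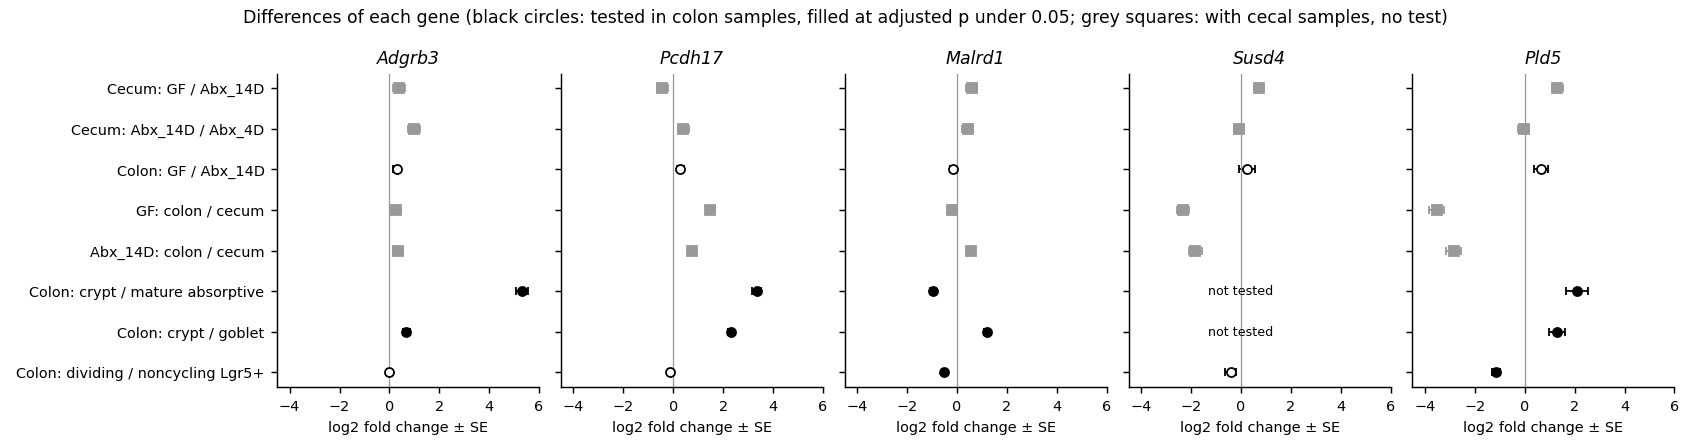
Log2 fold change (x axis) with its SE for each gene (panels) by comparison (rows, numerator first). Black circles are tests in colon samples, filled where the edgeR adjusted p was under 0.05, and grey squares rest on cecal samples and carry no test. Pld5 and Susd4 lie to the left in both colon to cecum rows, and Adgrb3 lies farthest right in crypt against mature absorptive cells (5.32).

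The 5 genes occupied different cell classes, which were compared within colon samples, outside the cecal contrasts that chose the genes. The choice was made in crypt cells, and how far it favours genes high in crypts was not tested. Adgrb3, Pcdh17 and Pld5 were higher in crypt than in mature absorptive cells and Malrd1 was lower. In the 5 colon samples with at least 20 cells of both classes, Adgrb3 measured 113 to 178 CPM in crypt and 1.68 to 6.03 CPM in mature absorptive cells, a log2 difference of 5.32 ± 0.26 (edgeR adjusted p = 4.52e-10). Pcdh17 was higher in crypt cells by 3.34 ± 0.19 (edgeR adjusted p = 2.45e-09) and Pld5 by 2.09 ± 0.43 (edgeR adjusted p = 0.00064). The Pld5 value rested on few transcripts, 18 in the mature absorptive cells of Colon GF 1 and 0 to 4 in those of each other sample of the 5. Without Colon GF 1 it was 3.54, the call being kept. With samples of fewer than 20 such cells included, mature absorptive cells of Colon GF held 33 Pld5 transcripts, or 15.1 CPM, against 34.6 CPM in crypt cells. In Colon Abx_14D they held 5, or 2.57 CPM, against 28.6 CPM. Malrd1 measured 148 to 227 CPM in crypt and 242 to 472 CPM in mature absorptive cells of these samples, and fell by 0.98 (SE 0.12, edgeR adjusted p = 6.79e-06). All 4 genes tested were called, against 66.6% of 10732 genes, and the median of all genes was itself 0.391 higher in crypt cells. Of the calls, 67.7% were higher in crypt cells, and 51.4% were with trimmed-mean (TMM) scaling. With that scaling the median was 0.059, and the 4 differences were 4.98, 3.01, 1.76 and -1.31 for Adgrb3, Pcdh17, Pld5 and Malrd1.

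Against goblet cells, in all 8 colon samples, all 4 genes tested were higher in crypt cells, beside 65.8% of 11427 genes called in either direction. Pcdh17 was higher by 2.32 ± 0.12 (edgeR adjusted p = 4.42e-10), Pld5 by 1.31 ± 0.31 (edgeR adjusted p = 0.0021), Malrd1 by 1.20 ± 0.12 (edgeR adjusted p = 3.92e-07) and Adgrb3 by 0.67 ± 0.14 (edgeR adjusted p = 0.000683). The median of all genes was 0.214 higher in crypt cells, as were 69.1% of the calls. With TMM scaling the median was 0.004, the share 49.0%, and Adgrb3 differed by 0.46 (edgeR adjusted p = 0.0107). Susd4 did not pass the low-count filter in either comparison. It stood at 4.23 CPM in crypt, 1.01 in goblet and 1.37 in mature absorptive cells of Colon GF, the last from only 3 transcripts (95% Poisson interval 0.283 to 4.02, counting error only). In Colon Abx_14D it stood at 3.52 CPM in crypt (95% Poisson interval 2.89 to 4.25) and 2.41 in goblet cells (1.32 to 4.04), which overlap, and 1 transcript was found in mature absorptive cells.

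Within the colon crypt gate, Pld5 and Malrd1 were lower in dividing cells (S phase, G2 and mitosis) than in noncycling Lgr5-positive cells. Pld5 measured 14.4, 29.0, 15.3 and 34.6 CPM in dividing cells of Colon GF, against 32.8, 51.5, 58.9 and 35.6 CPM in noncycling cells of the same samples. It fell by 1.16 (SE 0.16, edgeR adjusted p = 1.04e-05), and it was lower in dividing cells in all 8 colon samples. Malrd1 fell by 0.51 (SE 0.06, edgeR adjusted p = 1.74e-06). Pcdh17 differed by -0.13 ± 0.08, Susd4 by -0.42 ± 0.23 and Adgrb3 by -0.01 ± 0.10, none of which passed. Pcdh17 passed without Colon GF 4 (-0.19, edgeR adjusted p = 0.0374) and with no filter on low counts (-0.13, edgeR adjusted p = 0.019). Thus 2 of 5 were called, beside 40.6% of 11226 genes.

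Tuft cells, the rare chemosensory cells of the gut lining, held the most Adgrb3 per transcript of the classes shown, although they are not crypt cells by the gate. Over 119 tuft-gated cells of Colon GF, Adgrb3 reached 679.5 CPM (95% Poisson interval 637.5 to 724), with 571 to 1087 CPM in the 4 samples. Over 92 such cells of Colon Abx_14D it was 382 CPM (350.7 to 416), with 122 to 842 CPM in the 4 samples, 3 of which had fewer than 20 cells. In the cecum it was 1479 CPM over 15 cells of GF, 614 over 11 cells of Abx_14D, 255 over 4 cells of Abx_4D and 603 over 14 cells of Ctrl, too few cells for a comparison of groups. Malrd1 also reached 609 CPM in tuft-gated cells of Colon GF and 1221 CPM in those of Cecum GF, and 653 CPM over 5 enteroendocrine-gated cells of Cecum GF against 623.5 CPM over 6 of Cecum Ctrl.

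Malrd1 and Susd4 followed the cecal groups in mature absorptive cells as well, which is again a description. In mature absorptive cells Malrd1 averaged 242 ± 21.6 CPM in GF (SD, n = 4), 191 ± 22.7 in Abx_14D (n = 4), 143 ± 25.3 in Abx_4D (n = 3) and 41.1 ± 16.1 in Ctrl (n = 3). Susd4 averaged 51.2 ± 17.4 CPM in GF, 29.5 ± 4.34 in Abx_14D, 14.2 ± 1.89 in Abx_4D and 4.13 ± 3.17 in Ctrl in the same samples. In these sums no sample of GF, Abx_14D or Abx_4D overlapped Ctrl for either gene. The share of all genes without overlap was not computed, so nothing is read from this. All mature absorptive cells of Cecum Ctrl together held only 15 Susd4 transcripts. In goblet cells Susd4 ran from 2.51 to 43.7 CPM in GF (n = 4) and 1.70 to 4.21 CPM in Ctrl (n = 2), which overlap. Both antibiotic groups overlapped Ctrl there too. Malrd1 in goblet cells ran from 218 to 266 CPM in GF and 51.0 to 101 CPM in Ctrl, while Abx_14D, at 82.6 to 197 CPM, overlapped Ctrl. The crypt averages of Susd4 were 20.5 CPM in GF and 7.19 CPM in Ctrl, and whether the class difference changed between the groups was not tested.

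Pld5 in cecal mature absorptive cells averaged 86.5 ± 12.4 CPM in GF, 20.4 ± 22.4 in Abx_14D, 9.46 ± 8.71 in Abx_4D and 8.03 ± 7.14 in Ctrl, so only GF stood clear of the other groups there as in the crypt. In goblet cells Pld5 averaged 236 ± 78.3 CPM in GF (n = 4), 84.9 ± 22.8 in Abx_14D (n = 4), 102 ± 1.25 in Abx_4D (n = 2) and 59.8 ± 7.74 in Ctrl (n = 2). Adgrb3 and Pcdh17 stayed below 20 CPM in every cecal mature absorptive sum of at least 20 cells. Adgrb3 averaged 8.45 CPM there in GF, 7.16 in Abx_14D, 5.12 in Abx_4D and 3.14 in Ctrl, and each group overlapped Ctrl. In goblet cells Pcdh17 averaged 19.5 CPM in GF, 32.9 in Abx_14D, 12.55 in Abx_4D and 2.225 in Ctrl. All goblet cells of Ctrl together held 3 Pcdh17 transcripts. Adgrb3 in goblet cells averaged 42.1, 33.9, 44.8 and 19.8 CPM in the same order.

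**Figure D4:**
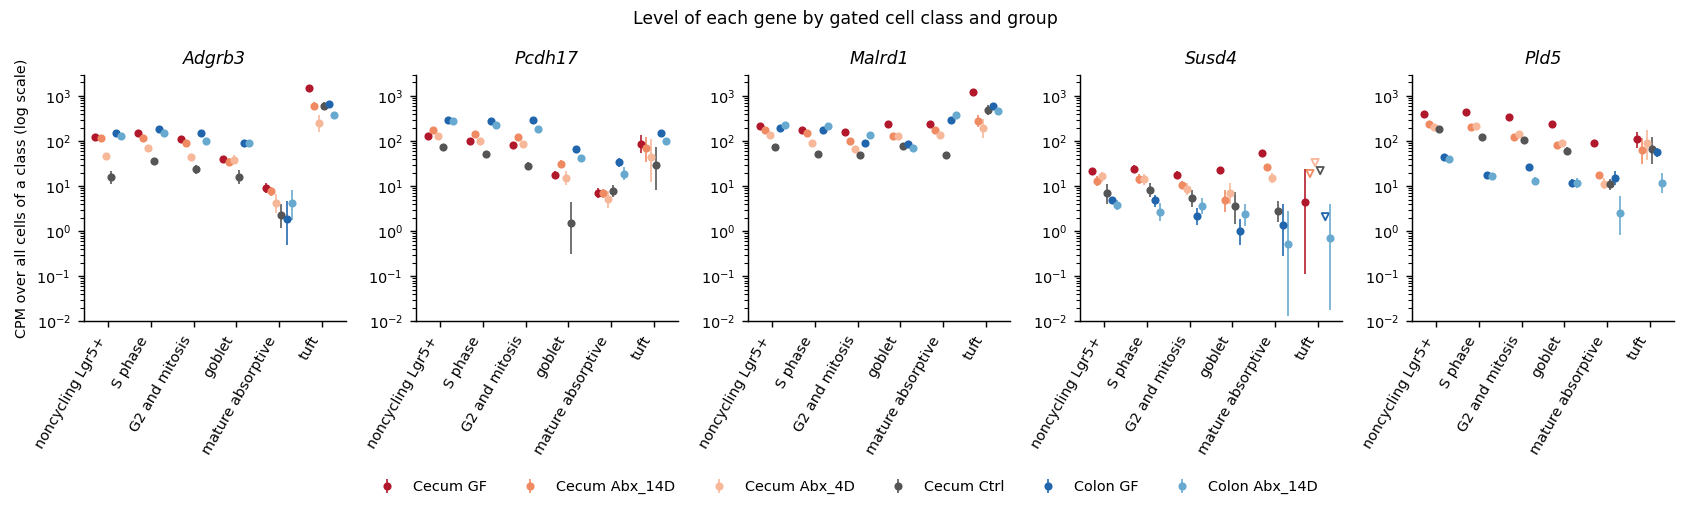
CPM of each gene (y axis, log scale) over all cells of a gated class (x axis) in each group, with 95% Poisson intervals that cover counting error only; open triangles mark the level of 3 counts where no transcript was found. Adgrb3 peaks in tuft-gated cells (1479 CPM in Cecum GF), Pcdh17 and Pld5 fall from crypt classes to mature absorptive cells, and Malrd1 is present in all classes.

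Genes that surround the 5 in their pathways, 43 in all, were mostly too scarce to test or did not pass. In cecal crypt cells 19 passed the low-count filter. Of these, 1 was higher in GF than in Ctrl, Slc51a, a subunit of the basolateral bile acid exporter, at 9.02 ± 3.01 CPM in GF and 3.09 ± 1.43 CPM in Ctrl (1.42 ± 0.41, edgeR adjusted p = 0.047). This 1 of 19 stands beside 5.01% of all 11946 genes, so the count is near that of genes at large. No other of the 19 passed there, and none passed in Abx_14D or Abx_4D against Ctrl with edgeR or DESeq2. At an unadjusted p under 0.05, 1 and 2 of them passed, beside 1719 and 1141 of all genes. The median log2 fold change of the 19 against Ctrl was -0.06 in GF, beside -0.01 over all genes and 1.65 over the 5 selected genes. In Cecum GF against Cecum Abx_14D none passed with either tool, with 1 at an unadjusted p under 0.05, beside 1332 of all genes. None of the 19 passed in Colon GF against Colon Abx_14D with edgeR or DESeq2. There 3 had an unadjusted p under 0.05, beside 1445 of 12504 genes. C1ql1 to C1ql4, ligands of Adgrb3, averaged at most 0.135 CPM in any group, Fgf15 at most 0.65 CPM. Pcdh1, another delta protocadherin, averaged 82.8 ± 3.57 CPM in Cecum GF and 74.4 ± 7.70 CPM in Cecum Ctrl (SD, n = 4 each).

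Between regions, 6 of 20 related genes were called in GF, beside 17.3% of all genes, and 7 after Abx_14D, beside 34.6% of all genes, so the count after Abx_14D is near that of genes at large. In colon against cecum, Slc51a had a log2 fold change of -2.10 in GF and -1.98 after Abx_14D, and Pld2, an active phospholipase D, of -2.57 and -3.28, the same direction as Pld5. Pld1, another active phospholipase D, had -0.43 and -0.29, the call after Abx_14D being lost with TMM scaling (-0.23, edgeR adjusted p = 0.0563). Fgfr4, the receptor for FGF15, had 0.54 and 0.72, Cd55, a complement regulator, 1.13 and 1.43, and Elmo1, a partner of Adgrb3, 0.37 and 0.43, in the same order. Cd46, another complement regulator, rose by 0.87 after Abx_14D and was not called in GF.

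Between colon classes, 11 of 15 related genes were called in crypt against mature absorptive cells, beside 66.6% of all genes. The bile acid transporters Slc10a2, Slc51a and Slc51b had log2 differences of -6.47, -5.13 and -4.09 and the bile acid receptor Nr1h4 -2.25, the direction of Malrd1. Fgfr4 rose by 2.86 and Elmo1 by 0.99. The other calls were Pld1 at -1.56, Susd6 at -1.09 and Cd55 at -0.73, while Cd46 rose by 0.74 and Pcdh1 by 0.54, both without a call under TMM scaling (edgeR adjusted p = 0.265 and 0.217). Against goblet cells 10 of 13 were called, beside 65.8% of all genes, with Fgfr4 at 2.17, Pld1 at -1.52 and Klb, the FGF15 co-receptor, at -1.26. Elmo2, Cd46 and Elmo1 were higher by 0.79, 0.76 and 0.47, Susd6 stood at -0.34, and Pcdh1, Nr1h4 and Dock1, higher by 0.38, 0.36 and 0.29, lost the call under TMM scaling (edgeR adjusted p = 0.0607, 0.153 and 0.134).
In dividing against noncycling cells 6 of 13 were called, beside 40.6% of all genes, of which Elmo2 rose by 0.51 and Cd46, Elmo1, Fgfr4, Pld1 and Pcdh1 had -0.55, -0.45, -0.44, -0.26 and -0.17. These counts lie near those of genes at large.

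By Pearson's r of log2(CPM + 1) over the 24 crypt sums, and among 10671 genes, Tmem117 (r = 0.94), Inpp4b (0.926) and Atp8b5 (0.914) were most like Adgrb3, and Tmem117 (0.892), Adgrb3 itself (0.874) and Pcnx (0.867) were most like Malrd1. Gm46851 (0.913), Cd200l1 (0.906) and Fgf1 (0.89) were most like Pcdh17. Mctp1 (0.911), Prpsap1 (0.91) and Pld5 (0.905) were most like Susd4, and Ugt1a6a (0.942), Prr5l (0.939) and Usp24 (0.936) were most like Pld5. The 24 points share tissue, condition and library preparation, so these values describe a pattern over 6 groups that includes the step between cecum and colon. They also include the cecal samples that chose the genes, so likeness among the chosen genes follows in part from that choice. By the same measure Pld5 had r of -0.652 with Pcdh17 and -0.256 with Adgrb3. Tmem117 averaged 493 CPM in Cecum GF, 333 in Cecum Abx_14D, 239 in Cecum Abx_4D and 188 in Cecum Ctrl, and 517 and 483 CPM in Colon GF and Colon Abx_14D.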

How the data were processed

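The authors deposited 1 matrix of transcript counts per cell and gene (unique molecules, not normalised), a cell table and a gene table. Per the submitters' processing notes the build was mm39 and Seurat was used; no source used here names the aligner or the annotation release. The 8 deposited samples are sublibraries that mix all conditions, so groups come from the loaded-sample names in the deposited cell table. Of 24609 barcodes, 15916 with at least 500 transcripts were kept (median 13472 transcripts), of which 14840 lie in the 6 groups used. Of 15441 well combinations of kept cells, 462 occur in more than 1 sublibrary and were kept as separate cells; none of 48 first-round wells held more than 1 loaded sample.

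Cells were gated in order by marker lists: immune (at least 3 markers detected), enteroendocrine (3), tuft (4), goblet (4, and 30 transcripts per 10000), mature absorptive (6 and 40), G2 and mitosis (4 and 10), S phase (4 and 6), and Lgr5-positive with at least 4 stem markers; the rest stayed ungated. Thresholds were set after the marker distributions were seen, class names follow the gates alone, and doublets were left in. Counts were summed per loaded sample and class with at least 20 cells and compared with edgeR 4.0.16 in R 4.3.3 (quasi-likelihood test after the default low-count filter, scaled by library size, Benjamini-Hochberg adjustment, threshold 0.05). The 4 cecal groups shared a fit, the colon groups another, and both tissues of GF and Abx_14D a joint fit with the interaction; class comparisons had the loaded sample as a block. CPM is the summed count of a gene per 1000000 transcripts of the class, and SE is that of the fit. Of these fits, the colon crypt comparison of GF with Abx_14D was tried on simulated counts, while the cecal, joint and class fits were not. Alternatives were TMM scaling, DESeq2 1.42.0, no low-count filter, at least 2000 transcripts per cell, noncycling cells alone, omission of each sample or of those over 0.5% mitochondrial, and the replicate number as a block. Noncycling cells without Cecum Abx_14D 3 were added after seeing the data.

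The 5 genes, the 43 related genes and the tests were chosen with earlier results of these data known. Fits that hold cecal crypt samples are read as tests for the related genes and as a description for the 5. Named genes are the 5, any related gene called, and the 3 most alike per gene with a mean of at least 5 CPM. Counts of overlapping genes cannot be fully told apart: Pcdh17 overlaps 9630013A20Rik on the opposite strand (130 counts in crypt cells against 26374) and Pld5 contains Rbm8a2 (227 against 16011). Intervals and floors cover counting error only.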

Additional observations from a re-analysis of the deposited data

Results flagged for a closer look

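In 30 groups of 4 crypt values (5 genes, 6 groups), 1 sample lay far from the other 3: Adgrb3 in Cecum GF 3, at 116 CPM where the other GF samples had 134 to 136 CPM. Chance flags about 1 in 20 such groups, and the sample was still above every Ctrl sample.

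Signal was also present in colon groups that entered no comparison. In 467 crypt cells of Colon Abx_4D, 442 of them from sample 1, Pcdh17 stood at 162.5 CPM, Malrd1 at 134 CPM, Adgrb3 at 86.2 CPM, Pld5 at 21.5 CPM and Susd4 at 3.50 CPM. In the 50 kept cells of Colon Ctrl, of all classes, Malrd1 had 11 transcripts, or 228.5 CPM (95% Poisson interval 114 to 409, counting error only).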

How the results depend on the processing

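Of the 174 counts of the 5 genes past the threshold under alternatives, 165 stayed within 1.5 times the value reported. A count of 0 that stayed 0 is among these, as in all 15 alternatives of Colon GF against Abx_14D and all 24 of the interaction. Counts from fits that hold cecal samples remain a description. For Cecum GF against Abx_14D (1 reported) the count was 2 with DESeq2 (Susd4 added), and 0 without samples over 0.5% mitochondrial and in noncycling Lgr5-positive cells, with Cecum Abx_14D 3 or without it; leaving out single samples gave 0 to 1. For Abx_14D against Abx_4D (0 reported) it was 1 with DESeq2 and 1 with no filter on low counts, and 0 to 1 when single samples were left out. For colon against cecum after Abx_14D (4 reported) it was 2 in noncycling cells. The cause of these changes was not tested.

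Sign changes occurred in differences that had not passed. In noncycling cells Pld5 in Abx_14D against Abx_4D was 0.37 (0.11 without Cecum Abx_14D 3, chosen after seeing the data), Adgrb3 in colon against cecum after Abx_14D -0.06, and Adgrb3 in the interaction 0.28. Leaving out single samples, Pld5 in Abx_14D against Abx_4D ranged from -0.21 to 0.08, Adgrb3 in the interaction from -0.36 to 0.11, and Adgrb3 in dividing against noncycling cells from -0.07 to 0.10.

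DESeq2 called more genes in all than edgeR in the contrasts of groups, as 101 against 33 for Cecum GF against Abx_14D, 527 against 317 for Abx_14D and 200 against 78 for Abx_4D against Ctrl, 239 against 134 for Colon GF against Abx_14D, and 20 against 0 for the interaction, where TMM scaling called 2. It called fewer between colon classes: 6416 against 7147 for crypt against mature absorptive, 6572 against 7514 for crypt against goblet, and 3717 against 4559 for dividing against noncycling cells. The replicate block (numbers 1 to 4) changed no call of the 5 genes: Pld5 in Cecum GF against Abx_14D was 1.32 with it. Deviations of same-numbered samples correlated at -0.215 to 0.349 in the cecum, 0.017 to 0.102 in the colon and -0.033 to 0.419 in both tissues together (mean 0.118, and -0.039 for different numbers). Not every pair exceeded 0.1, so the numbers were not taken to pair samples. Depth limited Susd4 in colon goblet and mature absorptive cells, and 4 to 15 tuft-gated cells per cecal group allowed no comparison.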
